A study of Mus musculus with 6 samples.

Results

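Of the 55487 genes in the deposited table, 44 that encode DNA replication licensing and fork machinery are described here. They were taken by gene symbol from a list of known replication factors, a list drawn up with earlier results of these data known, and each of the 44 symbols was found in the table. Libraries were made from whole small intestine, 3 from Lgr5-2A-DTR mice (DTR) and 3 from wild-type mice (WT), all C57BL/6 and more than 8 weeks old. In DTR animals a diphtheria toxin receptor is placed at Lgr5, a gene that marks the stem cells of the crypt base, and toxin therefore ablates Lgr5-positive cells. Both groups received diphtheria toxin at 20 µg per kg on each of 4 days, and tissue was taken 6 h after the final dose, so the controls carry the toxin but not the receptor. The comparison asks how loss of Lgr5-positive cells alters the transcripts of the tissue. Whole tissue was lysed, so fewer cells of a type and less RNA per cell cannot be told apart in any of these values.

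A cell copies its genome once per division by a fixed sequence of steps. The origin recognition complex, Cdc6 and Cdt1 load the ring-shaped MCM helicase onto origins, which is called licensing. Cdc45 and the GINS complex then switch the helicase on, and primase, polymerases, the sliding clamp PCNA and ligase build the new strands at the fork. In the small intestine this takes place mainly in the rapidly dividing transit-amplifying cells of the crypt, and in the Lgr5-positive stem cells that feed them. E2F transcription factors, held back by the retinoblastoma protein RB1, switch on many of these genes as cells enter S phase.

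The promoters of these genes held E2F letters more often than those of other genes, and a few are shown before the values for that reason. RefSeq windows of 300 bases, running from 250 before to 50 after an annotated start (build GRCm38.p6, the same build as mm10), were found for 35 of the 44 genes. Those with no entry are Mcm4, Gmnn, Gins1, Gins2, Gins4, Rfc2, Dscc1, Prim2 and Pole. The search used TTTCCCGC, TTTCGCGC, TTTGCCGC and TTTGGCGC on both strands, with overlapping matches counted separately. At least 1 match lay in the windows of 16 of 35 genes (45.7%), against 467 of 10534 tested genes (4.43%). By window rather than by gene this was 16 of 42 windows (38.1%), against 496 of 13366 windows of tested genes (3.71%). Printed below, 5′ to 3′ with E2F matches in capitals, are Hells, the single gene past the threshold that has a match, then Mcm3, Mcm5 and Mcm6, which have matches in pairs or more, and Pcna, the gene with the smallest p and no match. These 5 were chosen after their values were seen.
Hells, chr19:38930740-38931039, plus strand: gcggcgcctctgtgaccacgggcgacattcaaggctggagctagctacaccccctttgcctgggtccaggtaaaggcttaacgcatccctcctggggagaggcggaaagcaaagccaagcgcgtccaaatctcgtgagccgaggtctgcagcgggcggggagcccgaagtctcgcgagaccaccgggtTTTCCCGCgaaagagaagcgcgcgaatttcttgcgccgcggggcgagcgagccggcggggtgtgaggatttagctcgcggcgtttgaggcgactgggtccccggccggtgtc
Mcm3, chr1:20820263-20820562, minus strand: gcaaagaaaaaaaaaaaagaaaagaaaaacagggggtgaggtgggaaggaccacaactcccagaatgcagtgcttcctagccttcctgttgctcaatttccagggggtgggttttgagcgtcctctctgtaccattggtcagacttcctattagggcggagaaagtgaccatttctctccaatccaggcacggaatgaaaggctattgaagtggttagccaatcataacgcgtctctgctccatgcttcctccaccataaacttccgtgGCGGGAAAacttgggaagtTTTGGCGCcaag
Mcm5, chr8:75109259-75109558, plus strand: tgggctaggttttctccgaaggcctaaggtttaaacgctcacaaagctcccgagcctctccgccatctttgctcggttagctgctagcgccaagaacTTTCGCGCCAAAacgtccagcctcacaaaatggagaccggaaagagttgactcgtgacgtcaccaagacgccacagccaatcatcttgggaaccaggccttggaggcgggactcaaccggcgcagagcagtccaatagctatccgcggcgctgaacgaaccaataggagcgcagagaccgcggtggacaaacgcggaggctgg
Mcm6, chr1:128359656-128359955, minus strand: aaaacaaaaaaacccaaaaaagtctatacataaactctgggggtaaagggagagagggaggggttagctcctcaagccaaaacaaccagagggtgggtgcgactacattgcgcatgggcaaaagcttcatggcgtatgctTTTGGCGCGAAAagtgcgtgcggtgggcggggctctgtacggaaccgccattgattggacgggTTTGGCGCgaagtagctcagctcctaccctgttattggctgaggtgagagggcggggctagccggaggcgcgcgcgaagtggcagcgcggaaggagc
Pcna, chr2:132253131-132253430, minus strand: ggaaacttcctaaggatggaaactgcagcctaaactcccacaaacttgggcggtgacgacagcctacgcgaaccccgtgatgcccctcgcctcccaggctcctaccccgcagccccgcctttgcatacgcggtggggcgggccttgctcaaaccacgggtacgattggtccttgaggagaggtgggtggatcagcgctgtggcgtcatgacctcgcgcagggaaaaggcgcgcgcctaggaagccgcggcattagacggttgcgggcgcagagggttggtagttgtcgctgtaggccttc

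In Mcm5 and Mcm6 a pair of matches on opposite strands overlap and appear as 1 run of capitals. Calls were made both with and without E2F letters. Of the 16 genes with a match, all were tested and 1 passed as higher in DTR, with a median log2 change of 0.54. Of the 19 without a match, 18 were tested and 5 passed, with a median of 0.66. Over all tested genes 9.54% were called higher, with a median log2 change of 0.03. Orc1 has a match and Ticrr has none, and both entered the test only through their DTR levels. The letters CCAAT, bound by the factor NF-Y in many cell cycle promoters, were in windows of 23 of 35 genes (65.7%), against 42.4% of tested genes. The letters TTTGAA of the cell cycle homology region (CHR), found in many mitotic promoters, were in 5 of 35 (14.3%), against 14.7% of tested genes. A match describes letters and does not show whether a factor binds there.

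**Figure D1:**
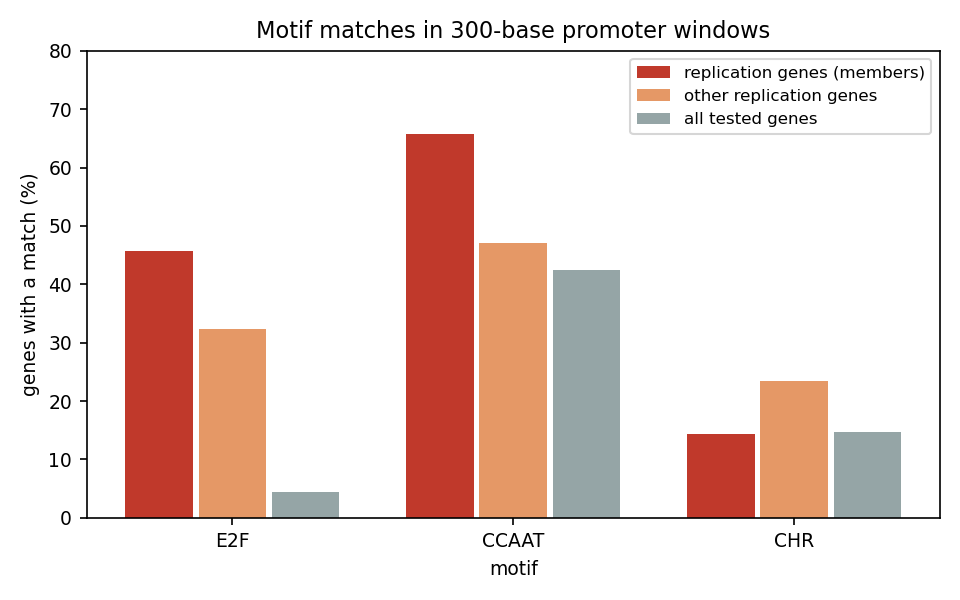
Percentage of genes with at least 1 match of each motif in a 300-base promoter window, for the replication genes described here (35 with a window), a list of other replication genes (34) and all tested genes (10534). E2F matches were in 45.7%, 32.4% and 4.43% of genes.

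Reads in genes ranged from 61404574 to 64972540 in DTR libraries and from 62092869 to 76596766 in WT libraries. Lgr5 itself had 22, 0 and 34 reads in DTR replicates 1, 2 and 3, against 315, 254 and 229 in WT replicates 1, 2 and 3. The groups also differed in sex-linked transcripts: Xist had 22432 to 24279 reads in DTR libraries and 16 to 38 in WT libraries. Genotype and this sex pattern cannot be told apart in these libraries, and Pola1 is the single X-linked gene among the 44. Markers of intestinal epithelium were abundant in every library, with summed levels of 4686 to 6450 RPKM in DTR and 4712 to 5191 RPKM in WT (RPKM is a read count scaled for gene length and library size). Pancreatic enzyme genes were also present throughout, at summed levels of 8935 to 28517.5 RPKM in DTR and 13587 to 39729 RPKM in WT.

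Levels of the replication genes were higher in DTR for most members, but few passed the test, and the DTR libraries differed widely among themselves. Summed over the 44 genes, levels were 222, 200.01 and 314 RPKM in DTR replicates 1, 2 and 3, against 160.3, 157 and 151 RPKM in WT replicates 1, 2 and 3. Every DTR library lay above every WT library, and the WT libraries were nearly alike. A large part of each sum came from the sliding clamp and clamp loaders, Pcna foremost. That role alone held 78.2, 76.4 and 90.0 RPKM in DTR, against 50.2, 47.0 and 47.4 RPKM in WT. The mean sum over the 44 genes was 245 ± 60.3 RPKM in DTR and 156 ± 4.64 RPKM in WT (SD, n = 3 libraries each). The median coefficient of variation among replicates was 33.1% in DTR and 9.51% in WT for these genes, and 25.1% in DTR and 10.04% in WT over all tested genes.

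The limma test took in 15563 genes whose mean log2 RPKM exceeded -2, and 42 of the 44 passed this filter. Orc1 and Ticrr passed it only through their DTR levels, and Dscc1 and Fen1 lay below it. At a Benjamini-Hochberg adjusted p of 0.05, 6 of the 42 were higher in DTR (14.3%), where 9.54% of all tested genes were. These are Pcna, Hells, Orc2, Orc6, Rpa2 and Chaf1b. None of the 42 was lower in DTR in limma, where 8.74% of all tested genes were lower. None was lower at an unadjusted p under 0.05 (18.5% of all tested genes) or in limma's voom on recovered reads (11.1% of all tested genes). At an unadjusted p under 0.05, 19 of the 42 were higher, Orc1 among them, where 20.3% of all tested genes were. In voom 7 of the 42 were higher, where 10.6% of all tested genes were.

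Direction was more widely shared than the calls. The DTR mean exceeded the WT mean for 36 of 42 genes, where it did so for 52.1% of all tested genes. For 25 of 42 genes (59.5%) every DTR library lay above every WT library, where this held for 25.1% of all tested genes. Orc1 and Ticrr, which passed the filter only through DTR, are among the 36 and the 25. The median log2 change over the 42 genes was 0.62, and 0.58 without Orc1 and Ticrr, beside 0.03 over all tested genes. These shares and medians are descriptions of the chosen genes.

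**Figure D2:**
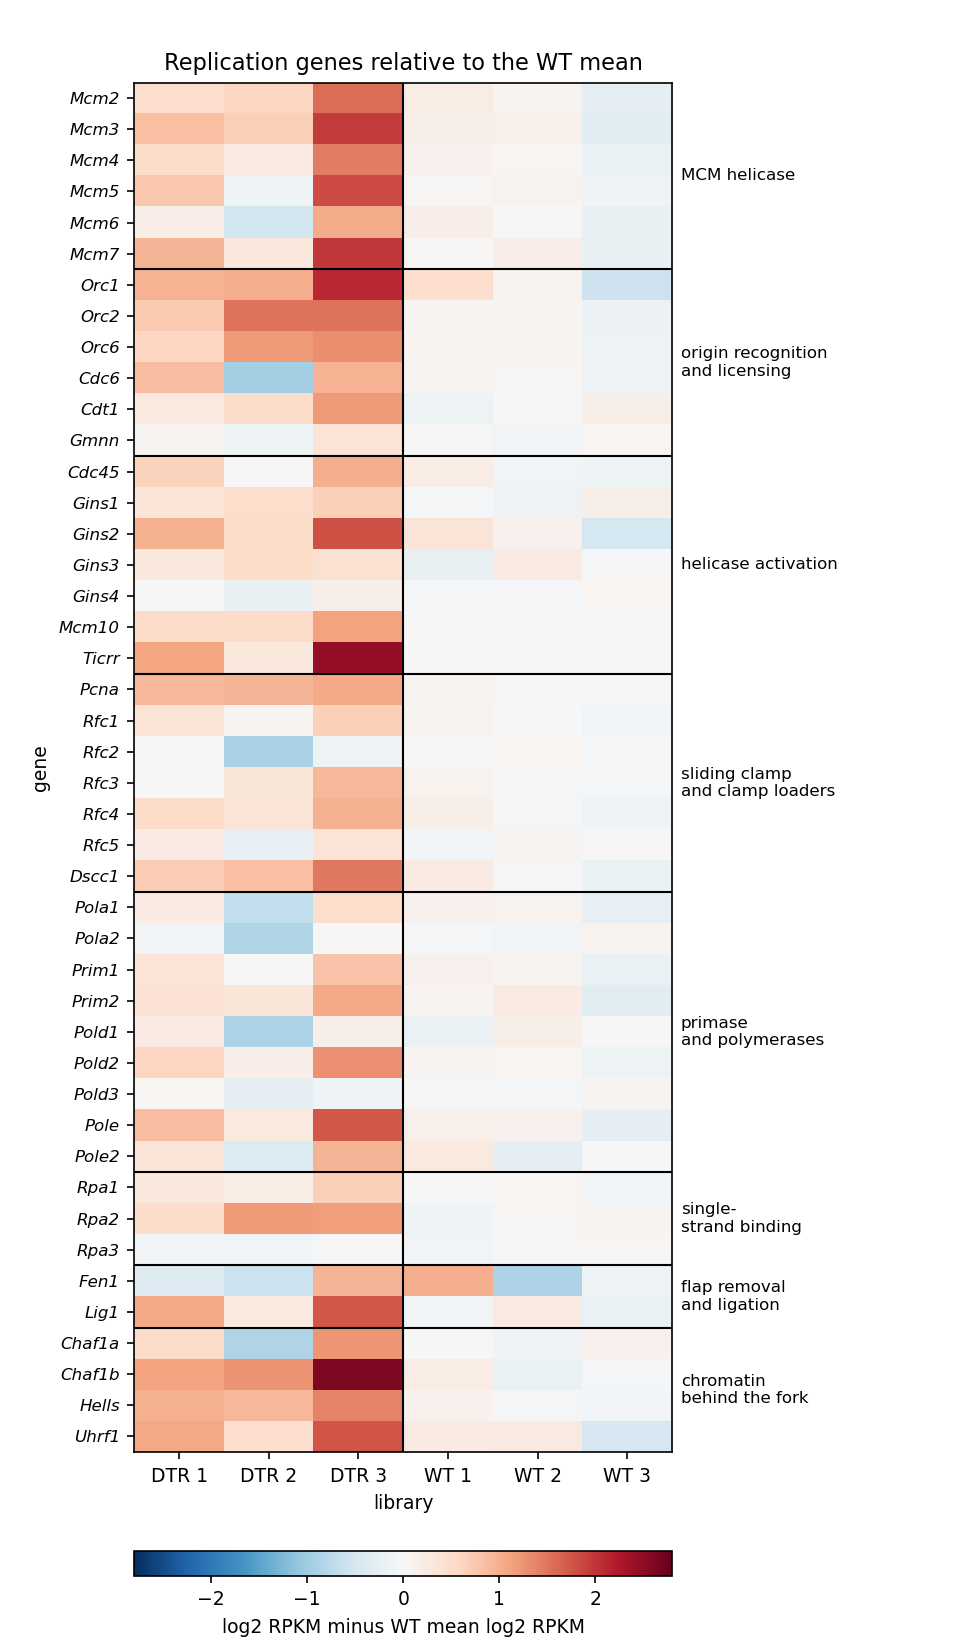
Log2 RPKM of each of the 44 replication genes minus its mean in WT, by library (columns, DTR left and WT right) and by role (blocks of rows). Red is above and blue below the WT mean, DTR replicate 3 is the reddest column for most genes, and DTR replicate 2 is pale or blue for many polymerase genes.

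The 3 DTR libraries held these transcripts at different levels. DTR replicate 3 was the highest of all 6 libraries for 34 of 42 genes, where it was highest for 23.7% of all tested genes. It was the highest of the 3 DTR libraries for 36 of 42, where 33.0% of all tested genes had it highest. DTR replicate 2 was the lowest of the DTR libraries for 29 of 42, where it was lowest for 39.1% of all tested genes. Relative to the WT mean, the median log2 difference over the 42 genes was 0.51 in DTR replicate 1, 0.27 in DTR replicate 2 and 1.06 in DTR replicate 3. DTR replicates 1, 2 and 3 lay above every WT library for 35, 26 and 37 of the 42 genes, where each did so for 40.2%, 43.1% and 44.2% of all tested genes. Orc1 and Ticrr are among the 35, 26 and 37, and among the 34 and 36 with DTR replicate 3 highest. DTR replicate 2 was the lowest of all 6 libraries for 13 of the 42, where it was lowest for 28.2% of all tested genes.

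Mitotic and proliferation markers had the same order of summed levels as the replication genes among the DTR libraries, but not among the WT libraries. Their summed level was 85.5, 69.4 and 133 RPKM in DTR replicates 1, 2 and 3, against 47.3, 48.2 and 45.5 RPKM in WT replicates 1, 2 and 3. For all 12 markers of that list each DTR library exceeded each WT library, where this held for 25.1% of all tested genes. In limma 6 passed (Cdk1, Ccnb1, Ccnb2, Birc5, Cdc20 and Nusap1), where 9.54% of all tested genes were called higher. Mki67, the protein that antibodies to Ki-67 detect in cycling cells, had 7.07, 6.72 and 11.8 RPKM in DTR, against 5.56, 6.03 and 5.99 RPKM in WT, and did not pass (log2 change 0.49, limma adjusted p = 0.165). Whether the share of cycling cells accounts for the replication transcripts was not tested.

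Because 1 library stood apart, the count of calls was also taken without each library. Without DTR replicate 3, 3 genes passed (Pcna, Hells and Chaf1b), where 3.13% of all tested genes were called higher. Without DTR replicate 2, 7 passed, of which Pcna and Hells are shared with the full comparison and Cdc6, Lig1, Mcm7, Pold2 and Uhrf1 are not, where 7.95% of all tested genes were called higher. Without DTR replicate 1, 9 passed, all 6 of the full comparison together with Cdt1, Gins1 and Mcm10, where 18.4% of all tested genes were called higher. Without WT replicate 1, 2 or 3, none passed in limma, where 0.488%, 0.508% and 0.649% of all tested genes were called higher. At an unadjusted p under 0.05, 13, 10 and 8 of the 42 were higher without WT replicate 1, 2 or 3, where 14.1%, 14.4% and 14.2% of all tested genes were.

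**Figure D3:**
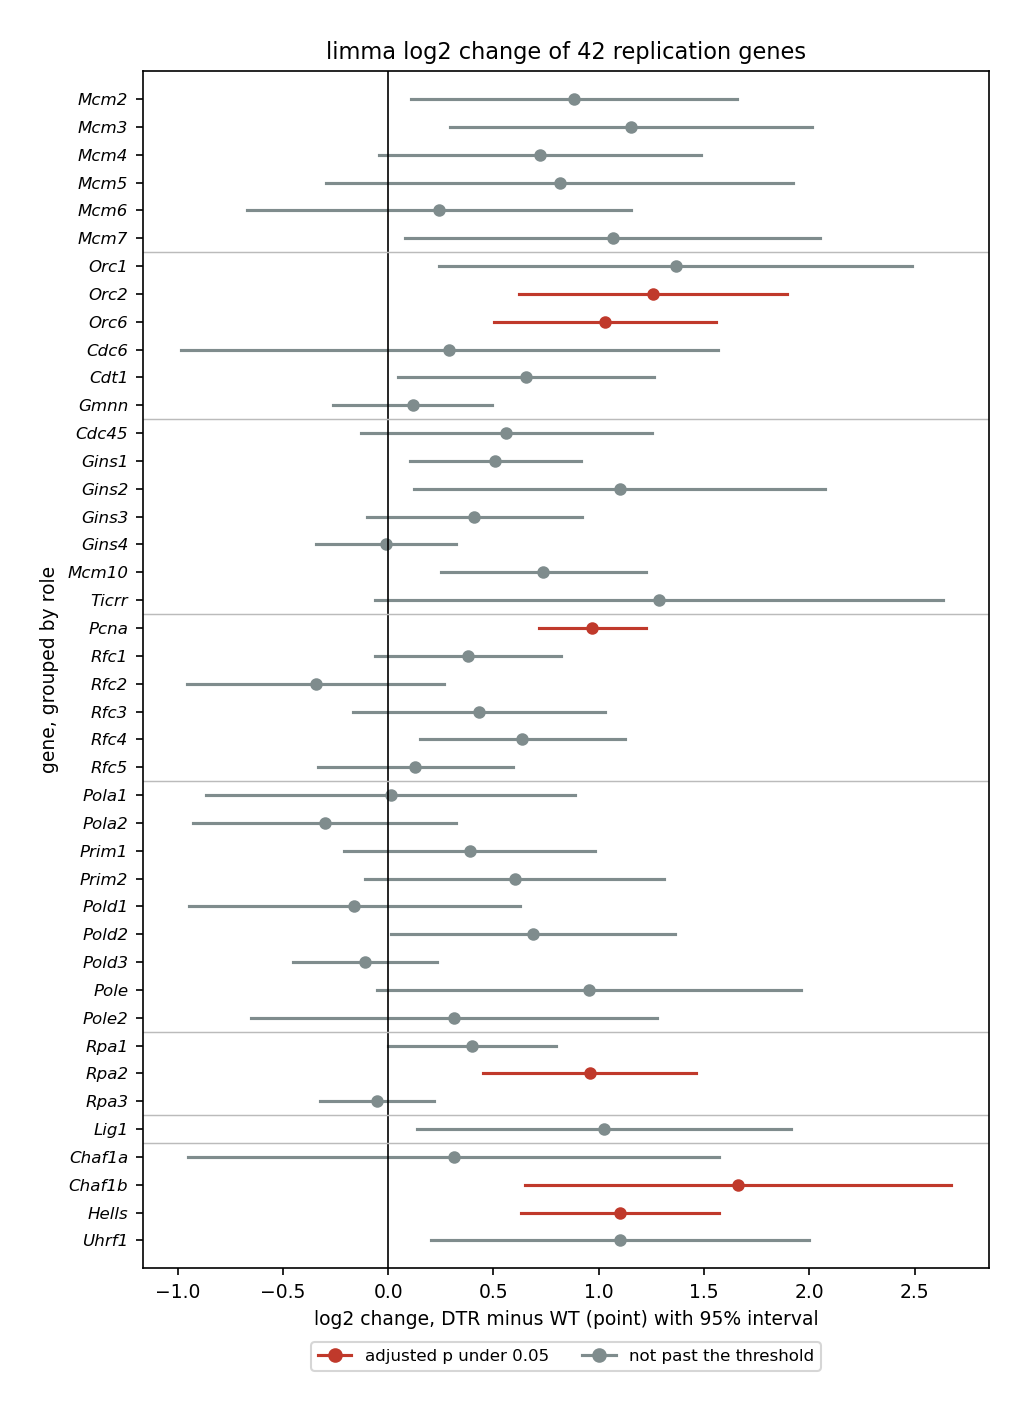
limma log2 change (DTR minus WT) of the 42 tested replication genes with its 95% interval, grouped by role from the MCM helicase at the top to chromatin factors at the bottom. The 6 genes past the adjusted p threshold are red, and Pcna has the narrowest interval among them, from 0.72 to 1.22.

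Origin recognition and licensing genes, 6 in all, included 2 of the 6 calls, where 9.54% of all tested genes were called higher. Orc2, a subunit of the origin recognition complex (mm10, chromosome 1, 58462771 to 58505109, minus strand), had 1.80, 3.12 and 3.09 RPKM in DTR replicates 1, 2 and 3, against 1.15, 1.14 and 0.969 RPKM in WT replicates 1, 2 and 3. The groups did not overlap, and DTR replicate 1 was nearest to WT. Its log2 change was 1.26 (SE 0.26; limma adjusted p = 0.0286). Of its exon bases, 29.8% are shared with Nif3l1 on the opposite strand, whose own log2 change was 0.26 and did not pass (limma adjusted p = 0.467).

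Orc6, the smallest subunit of the same complex (chromosome 8, 85299632 to 85308278, plus strand), had 3.89, 5.82 and 6.35 RPKM in DTR, against 2.71, 2.70 and 2.31 RPKM in WT. Again all DTR libraries lay above all WT libraries, with DTR replicate 1 the lowest of them. Its log2 change was 1.03 (SE 0.22; limma adjusted p = 0.0295). The Orc2 and Orc6 calls were both lost without DTR replicate 2 or DTR replicate 3.

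Orc1, the large ATPase subunit that begins complex assembly, had 0.393, 0.407 and 0.871 RPKM in DTR, against 0.281, 0.217 and 0.134 RPKM in WT. The groups did not overlap, but the log2 change of 1.37 did not pass (SE 0.47; limma adjusted p = 0.0842). Cdt1, which brings MCM rings to origins, had 5.78, 6.87 and 10.9 RPKM in DTR, against 4.33, 4.80 and 5.37 RPKM in WT, and did not pass (log2 change 0.65, limma adjusted p = 0.109).

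Cdc6, the ATPase that works with Cdt1, split the DTR libraries. Its levels were 1.21, 0.346 and 1.31 RPKM in DTR, against 0.707, 0.682 and 0.621 RPKM in WT. DTR replicate 2 lay below and the other DTR libraries above every WT library, and the log2 change was 0.29 (95% interval -0.98 to 1.57; limma adjusted p = 0.706).

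Gmnn encodes geminin, the inhibitor that holds Cdt1 to prevent a repeat round of licensing. It had 15.8, 13.6 and 19.5 RPKM in DTR, against 14.95, 14.1 and 15.5 RPKM in WT, with overlapping groups (log2 change 0.12, 95% interval -0.26 to 0.49; limma adjusted p = 0.607). The ratio of Gmnn to Cdt1 levels within a library was 2.73, 1.98 and 1.78 in DTR, against 3.45, 2.95 and 2.89 in WT. Every DTR ratio was below every WT ratio. This ratio was chosen after the values were seen and carries no test.

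None of the 6 MCM helicase genes passed in limma, although their levels in DTR replicate 3 were the highest of all libraries for each of them. At an unadjusted p under 0.05, 3 were higher, where 20.3% of all tested genes were. In voom 0 passed, where 10.6% of all tested genes were higher. The summed level of Mcm2 to Mcm7 was 37.3, 26.8 and 74.8 RPKM in DTR replicates 1, 2 and 3, against 27.0, 26.2 and 21.3 RPKM in WT replicates 1, 2 and 3. The sum of DTR replicate 2 thus lay within the WT range.

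Mcm3 had 5.99, 5.30 and 12.9 RPKM in DTR, against 3.76, 3.68 and 2.70 RPKM in WT. Its groups did not overlap (log2 change 1.15, SE 0.36; limma adjusted p = 0.0672). Mcm7 had 8.89, 5.62 and 18.1 RPKM in DTR, against 4.70, 5.25 and 3.99 RPKM in WT, also with no overlap (log2 change 1.07, SE 0.41; limma adjusted p = 0.108). Both encode subunits of the same ring. Mcm2 had a log2 change of 0.88 (limma adjusted p = 0.0963) and Mcm4 of 0.72 (limma adjusted p = 0.146), with DTR above WT in every library of each. Separation of this kind held for 4 of the 6 helicase genes, where it held for 25.1% of all tested genes.

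Mcm5 and Mcm6 overlapped between groups. Mcm5 had 5.89, 3.19 and 12.3 RPKM in DTR, against 3.57, 3.71 and 3.22 RPKM in WT. Mcm6 had 8.61, 5.35 and 15.7 RPKM in DTR, against 8.69, 7.67 and 6.56 RPKM in WT (log2 change 0.24, 95% interval -0.67 to 1.15; limma adjusted p = 0.661). For both genes DTR replicate 2 was the lowest of the 6 libraries.

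The ring holds its 6 subunits in equal number, and their RPKM levels differed within each library. RPKM divides by a length set for each gene, and exon bases were 6956 for Mcm2 and 3589 for Mcm4. Levels of different genes are therefore not numbers of transcripts. The highest of the 6 levels exceeded the lowest by 3.20, 1.84 and 3.05 times in DTR replicates 1, 2 and 3, against 3.79, 3.63 and 3.96 times in WT. In WT Mcm6 was the highest of the 6 in every library. The ratio of Mcm7 to Mcm6 levels was 1.03, 1.05 and 1.15 in DTR, against 0.541, 0.685 and 0.608 in WT, and that of Mcm3 to Mcm6 was 0.696, 0.990 and 0.823 in DTR, against 0.432, 0.480 and 0.411 in WT. Neither ratio overlapped between the groups. The ratio of Pcna to Mcm6 levels did overlap, at 6.74, 11.2 and 4.13 in DTR, against 3.75, 3.88 and 4.72 in WT. All of these ratios were chosen after the values were seen and carry no test.

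**Figure D4:**
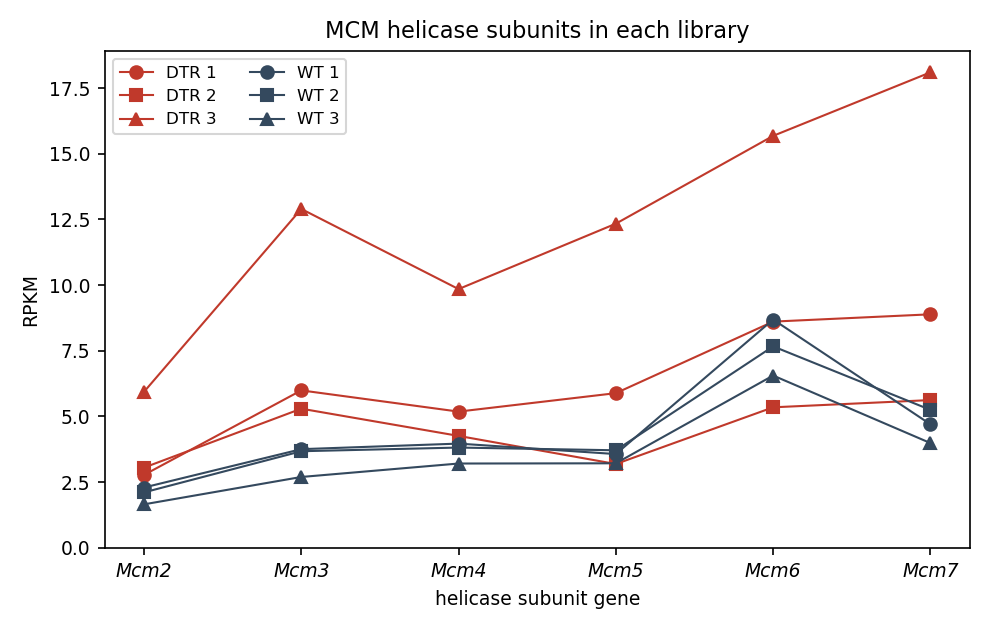
RPKM of Mcm2 to Mcm7 in each library, with lines joining the subunits of 1 library (red DTR, dark WT). DTR replicate 3 lies above all others, and Mcm6 is the peak of each WT line while Mcm7 is the peak of each DTR line.

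Genes that activate the helicase had higher means in DTR for 6 of 7, where 52.1% of all tested genes did. None was called in limma, where 9.54% of all tested genes were called higher. At an unadjusted p under 0.05, 3 were higher, where 20.3% of all tested genes were. In voom 1 passed, Mcm10, where 10.6% of all tested genes were higher. Mcm10, which binds the activated helicase, had 3.34, 3.37 and 5.06 RPKM in DTR, against 2.29, 2.30 and 2.33 RPKM in WT. All DTR libraries were above WT, and the log2 change of 0.74 missed the threshold narrowly (SE 0.20; limma adjusted p = 0.0510).

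Ticrr, the metazoan factor that helps recruit Cdc45 to origins, had 0.459, 0.260 and 1.16 RPKM in DTR, against 0.214, 0.206 and 0.218 RPKM in WT. Most of this difference lay in DTR replicate 3, and it did not pass (log2 change 1.29, 95% interval -0.06 to 2.63; limma adjusted p = 0.142). Cdc45 had 2.05, 1.33 and 2.66 RPKM in DTR, against 1.51, 1.25 and 1.20 RPKM in WT, with overlap through DTR replicate 2 (log2 change 0.56, limma adjusted p = 0.194).

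The 4 GINS genes, whose products form 1 tetramer, did not have the same values. Gins2 had a log2 change of 1.10 (limma adjusted p = 0.0989), Gins1 of 0.51 (limma adjusted p = 0.0793) and Gins3 of 0.41 (limma adjusted p = 0.197), each with DTR above WT in every library. Such separation held for 25.1% of all tested genes. Gins4 had 7.57, 6.46 and 8.37 RPKM in DTR, against 7.34, 7.31 and 7.79 RPKM in WT, with a log2 change of -0.01 (95% interval -0.34 to 0.32; limma adjusted p = 0.964). Gins2 shares 67.3% of its exon bases with Gse1 on the opposite strand, whose log2 change was 0.54 (limma adjusted p = 0.114).

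Pcna had the smallest p of the 42 tested genes. It encodes the sliding clamp that tethers polymerases to DNA (chromosome 2, 132249162 to 132253314, minus strand), and its level was the highest of the 44 in every library. It had 58.0, 60.0 and 64.7 RPKM in DTR, against 32.6, 29.7 and 30.9 RPKM in WT. The mean was 60.9 ± 3.44 RPKM in DTR and 31.1 ± 1.45 RPKM in WT (SD, n = 3 libraries each), a 1.96-fold difference. Its log2 change was 0.97 (SE 0.11; limma adjusted p = 0.00737), and among the alternatives the call was lost only when a WT library was left out (limma adjusted p up to 0.0551). The pseudogene Pcna-ps2, which resembles it in sequence, moved with it at 1.51, 1.29 and 1.57 RPKM in DTR, against 0.784, 0.821 and 0.680 RPKM in WT. How the counting shared reads between them is not given in the sources used here.

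The loaders that place the clamp had smaller differences. Rfc4 had 4.47, 3.96 and 6.12 RPKM in DTR, against 3.42, 2.96 and 2.85 RPKM in WT, and did not pass (log2 change 0.64, limma adjusted p = 0.0707). Rfc1, Rfc3 and Rfc5 had log2 changes of 0.38, 0.43 and 0.13, and none passed. Rfc2 had 4.82, 2.55 and 4.31 RPKM in DTR, against 4.73, 4.95 and 4.63 RPKM in WT, the lowest log2 change of the 42 at -0.34 (95% interval -0.95 to 0.27; limma adjusted p = 0.344). It shares 15.1% of its exon bases with Lat2 on the opposite strand, whose log2 change was -0.88 (limma adjusted p = 0.0375). Rfc5 shares 10.7% with Wsb2, also on the opposite strand, whose log2 change was 1.365 (limma adjusted p = 0.036). Rfc4 shares 12.7% with Eif4a2, likewise opposite, whose log2 change was -0.39 (limma adjusted p = 0.102). The part of these partners' reads in the loader values was not tested.

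Dscc1, a subunit of the alternative loader that also serves cohesion of sister chromatids, lay below the filter. It had 0.277, 0.302 and 0.470 RPKM in DTR, against 0.199, 0.163 and 0.150 RPKM in WT. The groups did not overlap, and an exact permutation test, two-sided, gave p = 0.1, the smallest that 3 against 3 libraries allow.

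Primase and polymerase genes had the lowest median log2 change of any role, 0.31. None of the 9 passed in limma or voom, where 9.54% and 10.6% of all tested genes were called higher. At an unadjusted p under 0.05, 1 was higher, where 20.3% of all tested genes were. DTR replicate 2 was the lowest DTR library for all 9 and lay below every WT library for 5 of them. Over all tested genes it was the lowest DTR library for 39.1% and the lowest of all 6 libraries for 28.2%. Their summed level was 25.2, 17.9 and 33.3 RPKM in DTR, against 20.4, 20.5 and 19.3 RPKM in WT.

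Within this role the genes differed by subunit. Pold2, an accessory subunit of polymerase delta, had 10.5, 7.86 and 16.9 RPKM in DTR, against 7.37, 7.25 and 6.25 RPKM in WT, with no overlap (log2 change 0.69, limma adjusted p = 0.122). Pold1, the catalytic subunit of the same enzyme, had 2.66, 1.23 and 2.53 RPKM in DTR, against 1.99, 2.55 and 2.27 RPKM in WT (log2 change -0.16, 95% interval -0.95 to 0.62). Pole, the catalytic subunit of polymerase epsilon on the leading strand, had 0.623, 0.411 and 1.13 RPKM in DTR, against 0.377, 0.371 and 0.285 RPKM in WT (log2 change 0.95, limma adjusted p = 0.144). Pole2, its accessory subunit, had a log2 change of 0.31, and Pold3 of -0.11.

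Of the 4 genes of the polymerase alpha-primase complex, which starts each new strand, none was past the threshold. Prim2 and Prim1, the primase subunits, had log2 changes of 0.60 and 0.39. The X-linked Pola1 had 0.680, 0.360 and 0.813 RPKM in DTR, against 0.629, 0.620 and 0.497 RPKM in WT (log2 change 0.01, 95% interval -0.86 to 0.89). Pola2 had 2.63, 1.54 and 2.81 RPKM in DTR, against 2.71, 2.64 and 2.98 RPKM in WT (log2 change -0.30, limma adjusted p = 0.416).

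The trimer RPA coats single-stranded DNA at the fork, and its 3 genes had unlike values. Rpa2 (chromosome 4, 132768332 to 132778752, plus strand) rose, with 6.00, 9.53 and 9.34 RPKM in DTR, against 3.85, 4.28 and 4.43 RPKM in WT. DTR replicates 2 and 3 were alike and DTR replicate 1 was nearer to WT, as for Orc2. The log2 change was 0.96 (SE 0.21; limma adjusted p = 0.0314), and the call was lost without DTR replicate 2 or DTR replicate 3. Rpa1 had a log2 change of 0.40 (limma adjusted p = 0.129). Rpa3 had 7.58, 7.61 and 8.02 RPKM in DTR, against 7.61, 8.20 and 8.25 RPKM in WT (log2 change -0.05, 95% interval -0.32 to 0.22).

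Lig1, the ligase that seals Okazaki fragments, had 6.41, 3.69 and 10.2 RPKM in DTR, against 2.90, 3.66 and 2.69 RPKM in WT. DTR replicate 2 was barely above WT replicate 2, and the log2 change of 1.03 did not pass (SE 0.37; limma adjusted p = 0.0938). Fen1, the nuclease that trims the flaps before ligation, was listed at 0.136, 0.116 and 0.340 RPKM in DTR, against 0.353, 0.0960 and 0.159 RPKM in WT, below the filter. Of its exon bases, 84.2% are shared with overlapping genes, mainly Gm10143 on the opposite strand, and reads of such genes cannot be told apart without a known strand setting. An exact permutation test, two-sided, gave p = 0.9.

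Chromatin factors that follow the fork held the other calls, 2 of 4 genes, where 9.54% of all tested genes were called higher. Hells, a helicase-like remodeller needed for DNA methylation (chromosome 19, 38930915 to 38971051, plus strand), had 2.21, 2.10 and 2.88 RPKM in DTR, against 1.20, 1.08 and 1.04 RPKM in WT. The groups were well apart, and the log2 change was 1.10 (SE 0.20; limma adjusted p = 0.0203). Chaf1b, the middle subunit of the histone chaperone CAF-1 (chromosome 16, 93883901 to 93906115, plus strand), had 1.48, 1.62 and 4.17 RPKM in DTR, against 0.784, 0.601 and 0.669 RPKM in WT. Its log2 change of 1.66 was the largest of the 42 (SE 0.42; limma adjusted p = 0.0420), and the call was lost without DTR replicate 2, with a pseudocount of 1, with no filter and without the variance trend.

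Chaf1a, the large subunit of the same chaperone, had 0.810, 0.312 and 1.31 RPKM in DTR, against 0.552, 0.521 and 0.604 RPKM in WT, with overlap (log2 change 0.31, 95% interval -0.95 to 1.57; limma adjusted p = 0.684). It shares 52.5% of its exon bases with Ubxn6 on the opposite strand, whose log2 change was -0.09. Uhrf1, which reads hemimethylated DNA and recruits the maintenance methyltransferase, had 4.69, 3.07 and 7.59 RPKM in DTR, against 2.60, 2.66 and 1.60 RPKM in WT, with no overlap (log2 change 1.10, SE 0.37; limma adjusted p = 0.0826).

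**Figure D5:**
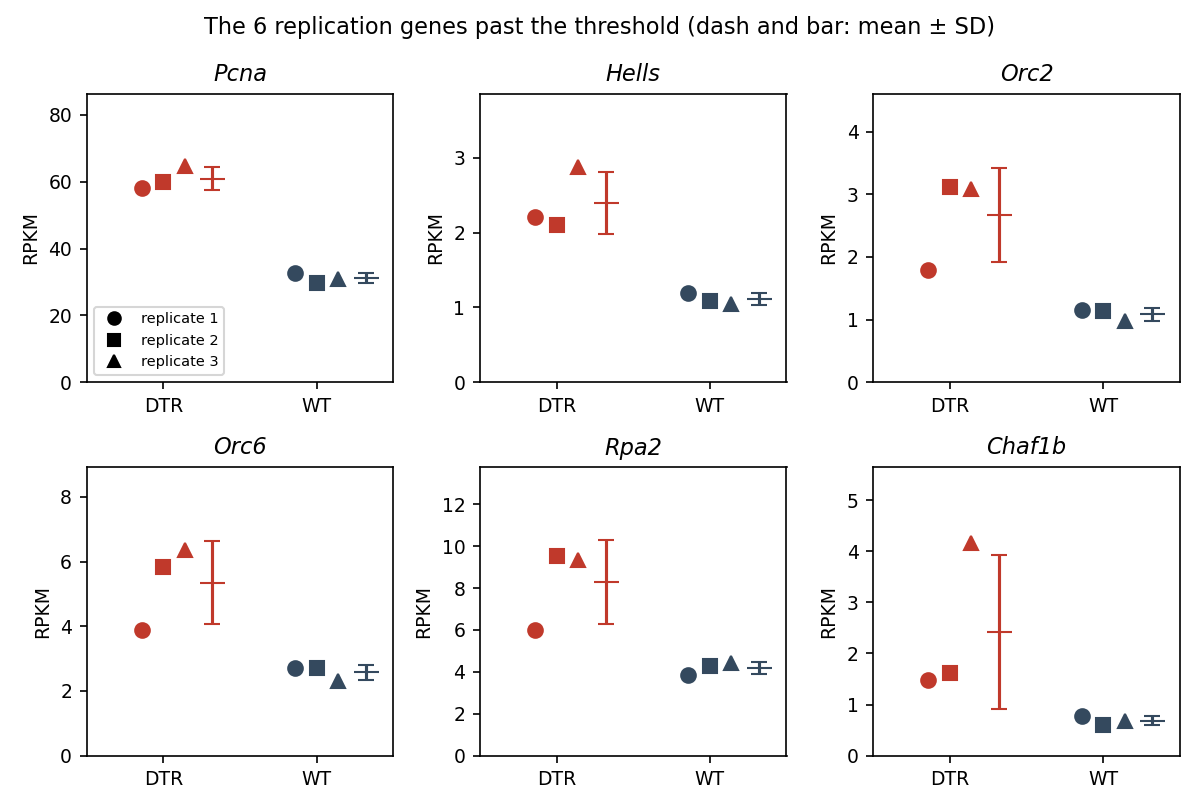
RPKM of the 6 replication genes past the threshold in each library (circle, square and triangle for replicates 1, 2 and 3; dash and bar for mean ± SD), DTR left and WT right. Pcna is tight in both groups (58.0 to 64.7 against 29.7 to 32.6), DTR replicate 1 is lowest for Orc2, Orc6 and Rpa2, and DTR replicate 3 stands above the rest for Chaf1b.

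Other genes that serve replication had few calls as well. Of 41 further replication genes 40 were tested, 1 was higher and 1 lower, fewer than the 9.54% and 8.74% of all tested genes would give. The mean was higher in DTR for 35 of the 40, where it was for 52.1% of all tested genes, and the median log2 change was 0.44. Nasp, a histone chaperone, had 5.68, 5.47 and 7.36 RPKM in DTR, against 3.38, 3.41 and 2.97 RPKM in WT, and rose (log2 change 0.91, SE 0.17; limma adjusted p = 0.0217). Top1, which relaxes DNA ahead of the fork and is also used in transcription, had 5.93, 4.50 and 4.78 RPKM in DTR, against 7.54, 7.19 and 7.45 RPKM in WT, and fell (log2 change -0.55, SE 0.15; limma adjusted p = 0.0471). The Top1 call was lost without DTR replicate 2 or DTR replicate 3, with no filter and without the variance trend.

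Of 36 upstream regulators of S-phase entry 3 were higher and 2 lower, with a median log2 change of 0.14. These counts are at or below the background of 9.54% higher and 8.74% lower, so only the single genes are described. The higher ones were Cdkn1a, Mybl2 and E2f7. Cdkn1a encodes the inhibitor p21, which binds both cyclin-dependent kinases and PCNA, and had 105, 198 and 166 RPKM in DTR, against 43.2, 44.8 and 50.9 RPKM in WT (log2 change 1.71, SE 0.24; limma adjusted p = 0.0132). Mybl2, a transcription factor of cycling cells, had 1.42, 1.37 and 3.26 RPKM in DTR, against 0.672, 0.752 and 0.667 RPKM in WT (log2 change 1.41, limma adjusted p = 0.0449). E2f7, an E2F that represses, had 0.300, 0.426 and 0.781 RPKM in DTR, against 0.120, 0.173 and 0.126 RPKM in WT (log2 change 1.75, limma adjusted p = 0.0433). Like Orc1 and Ticrr it passed the filter only through its DTR level. The calls of Mybl2 and E2f7 were lost with no filter, at a pseudocount of 1 and without DTR replicate 3, that of Mybl2 also without the variance trend, and that of E2f7 also without DTR replicate 2.

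The lower ones were Rb1 and E2f3. Rb1, the retinoblastoma gene, had 8.50, 7.78 and 6.48 RPKM in DTR, against 11.5, 11.8 and 13.0 RPKM in WT (log2 change -0.68, SE 0.14; limma adjusted p = 0.0287). E2f3, an E2F that activates, had 2.20, 1.94 and 2.10 RPKM in DTR, against 4.09, 2.77 and 3.73 RPKM in WT (log2 change -0.75, SE 0.19; limma adjusted p = 0.0445). For neither gene did the groups overlap. Both calls were lost without DTR replicate 3, and that of E2f3 also without DTR replicate 2, with no filter, without the variance trend and with array weights. Every call in these 2 lists, like those of the 6 replication genes, was lost when any WT library was left out.

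Immune cells and crypt base cells can also replicate DNA, and their markers are set beside these genes. Over all tested genes, 9.54% were called higher and 8.74% lower. The 10 crypt base stem cell markers summed to 81.1, 47.7 and 86.3 RPKM in DTR, against 92.3, 89.9 and 63.2 RPKM in WT. Of the 9 tested 2 were higher (Sox9 and Slc12a2) and 1 lower (Tnfrsf19), and Lgr5 lay below the filter. Paneth cells, which do not divide, had 6 of 8 markers lower, with sums of 551, 539 and 736 RPKM in DTR, against 3916, 3637 and 2509 RPKM in WT. The summed level of 10 B cell and germinal centre markers was 7.64, 3.77 and 5.46 RPKM in DTR, against 6.07, 38.4 and 29.8 RPKM in WT. None of the 5 tested passed in limma or voom. At an unadjusted p under 0.05, 2 were lower, where 18.5% of all tested genes were. The 8 T cell markers summed to 16.2, 6.44 and 17.2 RPKM in DTR, against 36.6, 40.3 and 55.1 RPKM in WT, and 5 of 8 fell.

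Markers of other cell types shifted between the groups as well. Of 10 enterocyte markers, 4 were lower in DTR and 7 lay below WT in every DTR library, with a median log2 change of -0.77, where 8.74% of all tested genes were called lower and 22.6% lay below WT throughout. Their summed level was 23229, 35692.5 and 19605 RPKM in DTR, against 22121, 23114 and 26043 RPKM in WT. Of 8 myeloid markers 4 were lower and 1 higher, where 8.74% and 9.54% of all tested genes were. Their sums were 65.2, 60.2 and 54.9 RPKM in DTR, against 121, 149 and 143 RPKM in WT. Of 4 tested erythroid markers 2 were lower, where 8.74% of all tested genes were. Sums over the erythroid list were 7.06, 44.3 and 9.43 RPKM in DTR, against 107, 107 and 76.1 RPKM in WT. None of the 6 smooth muscle or 6 fibroblast markers passed in limma or voom. At an unadjusted p under 0.05, 1 smooth muscle marker was higher and 1 fibroblast marker lower, where 20.3% and 18.5% of all tested genes were. The part of any of these cell types in the replication levels was not tested.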

How the data were processed

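Whole small intestine RNA-seq libraries were grouped by genotype, 3 DTR and 3 WT. The submitters' processing notes name STAR, featureCounts, edgeR and build mm10. Tool versions, strand setting and treatment of multiply matching reads: not given in the sources used here. The deposited values are log2 RPKM, and the deposited normalization factors are a ratio that rescales each library total. WT replicates 1 and 2 share a description and were told apart by title. No label states outright that libraries are separate mice, and p-values reflect only how these samples vary, which may be technical.

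RPKM is 2 to the power of the deposited value. With a prior count of 0.25 removed, 100% of values were whole reads (tolerance 1e-06). The 15563 genes with a mean above -2 went into limma 3.58.1 (R 4.3.3) with a mean-variance trend, two-sided, DTR minus WT. The deposited prior count understates fold changes of low genes. The test was checked on simulated data with the same spread in both groups, which does not cover the wider spread among DTR libraries. Members, roles and lists were chosen with earlier results of these data known. All 44 members are named; the lists of further replication genes and regulators give up to 4 called genes of smallest p in each direction. Mitotic and stem cell markers and the ratios were named after their values were seen. Positions and exon overlaps come from GENCODE M21.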

Additional observations from a re-analysis of the deposited data

How the results depend on the processing

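The median log2 change of the replication genes stayed positive under every alternative run, from 0.35 with a pseudocount of 1 to 0.83 without DTR replicate 2. The count of these genes called higher was 5 to 7 with other pseudocounts, filters, scalings, priors, voom and autosomal genes alone. In those settings 3.79% (no filter) to 12.4% (filter at 0) of all tested genes were called higher. The count was 20 with array weights, where 16.4% of all tested genes were called higher. No replication gene was called lower under any alternative run. Leaving out each library in turn gave 0 to 9 genes called higher, where 0.488% to 18.4% of all tested genes were. With the replicate number as a block 2 were called, Pcna and Rpa2, and 3.5% of all tested genes. Same-numbered libraries correlated in their deviations at -0.011, -0.0024 and 0.165, and DTR replicates 1 and 2 correlated best with another number. Correlations this small, from 3 libraries per group, cannot decide whether the numbers pair the samples.

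Counts for the other lists follow, with the share of all tested genes called in the same direction in brackets. For the further replication genes, the count higher was 3 with a filter at 0 (12.4%), with median centring (9.66%) and with quantile normalization (10.8%). It was 4 with voom (10.6%), 11 with array weights (16.4%), 0 with the replicate block (3.5%) and 0 to 7 without single libraries (0.488% to 18.4%). Their count lower was 0 with no filter (4.19%), without the variance trend (7.30%) and with the replicate block (3.96%). It was 0 to 1 without single libraries (0.488% to 17.6%). For the regulators, the count higher was 1 with a pseudocount of 1 (9.57%), with no filter (3.79%) and with the replicate block (3.5%). It was 5 with quantile normalization (10.8%) and with voom (10.6%), 6 with array weights (16.4%) and 0 to 5 without single libraries (0.488% to 18.4%). The regulators' count lower was 1 with no filter (4.19%) and without the variance trend (7.30%). It was 4 with quantile normalization (9.44%), 0 with the replicate block (3.96%) and 0 to 3 without single libraries (0.488% to 17.6%). The causes were not tested.

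The sign of the log2 change turned for a few genes whose change was small. Gins4 was 0.071 with array weights. Without single libraries the range was -0.097 to 0.090 for Gins4, -0.16 to 0.61 for Mcm6, -0.049 to 0.91 for Cdc6, -0.022 to 0.24 for Gmnn, -0.23 to 0.36 for Pola1, -0.36 to 0.20 for Pold1, -0.011 to 0.66 for Pole2 and -0.15 to 0.89 for Chaf1a. The RPKM difference of Fen1 ranged from -0.077 to 0.070. Of the 6 calls, that of Pcna held in 15 of 18 other settings, Hells in 14, Rpa2 in 13, Orc2 and Orc6 in 12 each and Chaf1b in 10. Fen1 had 17 to 51 reads in DTR libraries and 14 to 63 in WT libraries. With so few reads counted, and 84.2% of its exon bases shared with overlapping genes, a difference was not detectable.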
